A study of Arabidopsis thaliana with 9 samples.

Results

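The beta-1,3-glucanases described here are enzymes of glycosyl hydrolase family 17, chosen as a list of 10 Arabidopsis thaliana loci and matched to array probe sets by locus code or symbol. Of these loci, 9 were each paired with 1 probe set of their own, out of 22810 probe sets on the array, and AT5G42100 (BG_PPAP) was not analysed here. Transcript levels were measured in whole seedlings of 3 genotypes, with 3 Affymetrix ATH1 arrays per genotype and 1 array per RNA sample. The tested genotypes were vtc1-1 and vtc2-1, lines with lowered vitamin C (ascorbate), the second induced with EMS in the Col-0 background, and each was compared with the wild type Col-0. All seedlings were 14 days old, had grown on agar plates of minimal medium, and carried no other treatment in the labels. Each gene is represented by 1 mutant line, and the labels mention no backcross and leave out whether a replicate was a sowing of its own, so a p-value here reflects the spread among these RNA samples and no wider one. Values are the deposited linear signals, scaled alike on all arrays, and signals of different probe sets are not set against each other because probes differ in brightness. A log2 difference is the mean log2 signal of the mutant minus that of Col-0, given with its standard error (SE) from limma, and a probe set was called at an adjusted p under 0.05 over all 14603 tested probe sets. Having 3 arrays per group limits precision.

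As background, beta-1,3-glucanases cut beta-1,3-glucans. In plants the main such polymer is callose, which is laid down at plasmodesmata (the channels between cells), in cell plates and at sites of attack, and these enzymes remove it. Some family members are secreted enzymes of the defence response that also attack fungal cell walls, while others sit at plasmodesmata, often held at the membrane by a lipid anchor, and open the channels by trimming callose. The family therefore joins immunity, cell-to-cell transport and wall remodelling.

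All 9 glucanases were bright enough to be tested, and 8 of them exceeded the 40th percentile of signal on every array. The exception was AT4G16260, which lay above it on 7 of 9 arrays. The labelled tissue was checked with the few markers that had a probe set. These were 2 of 10 leaf, 2 of 10 root and 1 of 6 flower and anther genes. RCA (Rubisco activase) had signals of 5751 to 8376 and PRK (phosphoribulokinase) 2624 to 4300, both leaf genes of carbon fixation. PYK10, a beta-glucosidase abundant in roots, had signals of 1726 to 4406. The other root gene, EXPA7, was dim, at 30.1 to 56.9, and exceeded the 40th percentile on 8 of 9 arrays. AMS, an anther transcription factor, was below the 40th percentile on all 9 arrays. As 1 fact of the whole series, Col-0 replicate 3 stands apart from the other wild-type arrays, and limma's array weights gave it 0.382, against 0.720 to 1.75 for the other arrays. Differences of the named genes from Col-0 are therefore given with and without that array.

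**Figure D1:**
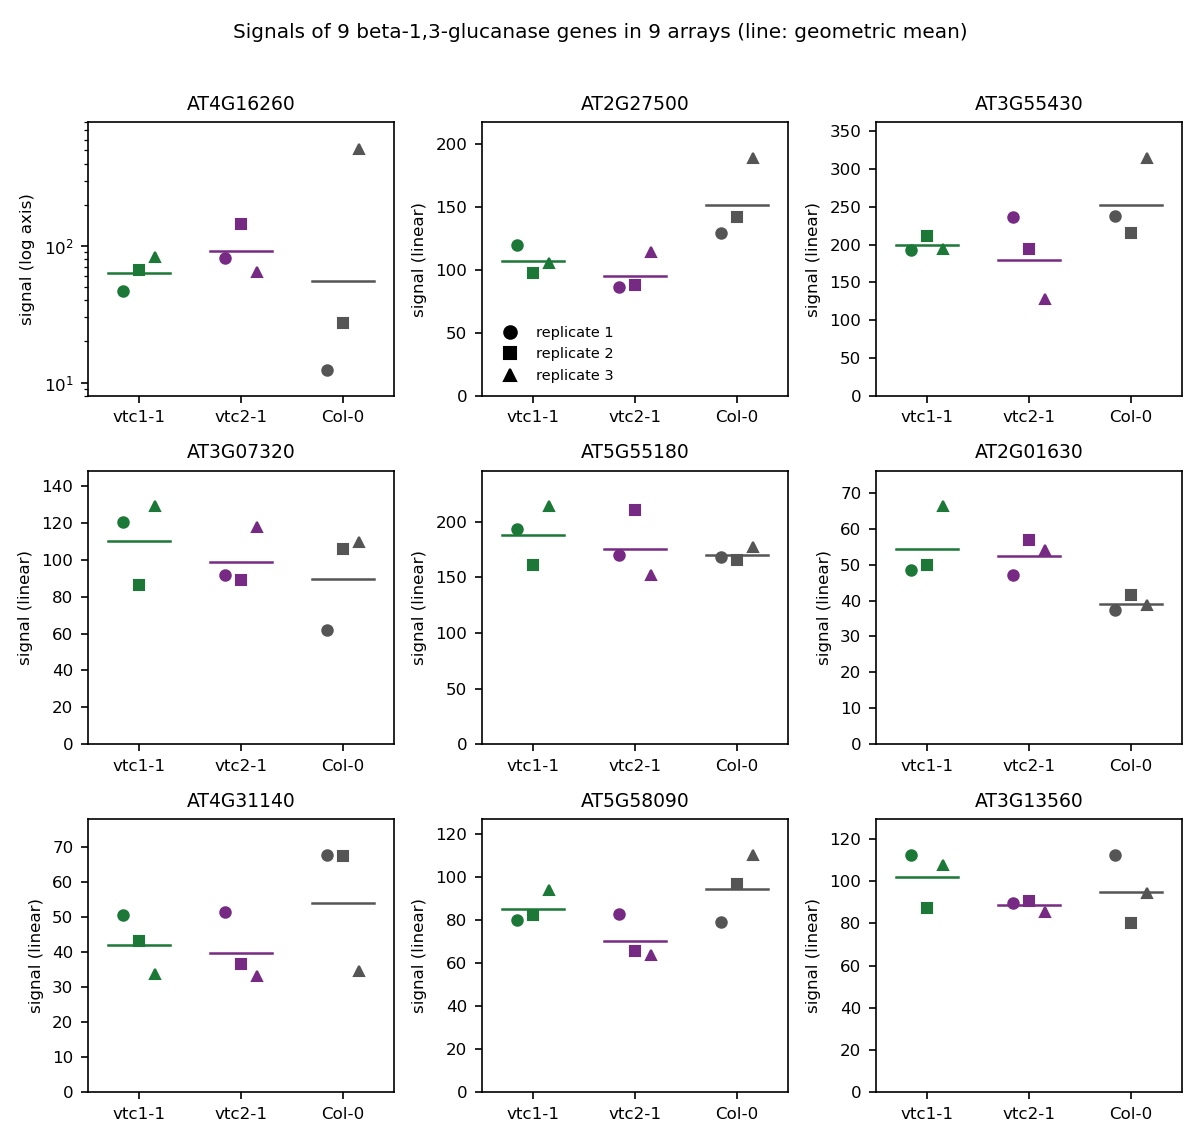
Signals of the 9 glucanases, 1 panel per gene, with vtc1-1, vtc2-1 and Col-0 along the horizontal axis, 1 point per array and a line at each geometric mean; the axis is linear from 0, except for AT4G16260, where it is logarithmic. AT4G16260 in Col-0 replicate 3 (triangle) reaches 513, far above the 12.2 and 27.4 of its sister arrays, while the other 8 genes span at most 2.47-fold over all arrays.

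AT4G16260 encodes a defence-type beta-1,3-glucanase, which a cyst nematode effector protein is known to bind. Its signal was 46.9, 67.0 and 82.4 in vtc1-1 replicates 1, 2 and 3. It was 81.3, 145.8 and 64.0 in vtc2-1 and 12.2, 27.4 and 513 in Col-0, in the same order. Both low Col-0 signals were below the 40th percentile of their arrays, the high one was the highest of all 9, and the 6 mutant signals lay between them. AT4G16260 was thus the glucanase with the widest range, 41.9-fold over the arrays.

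Within the wild type, AT4G16260 was 28.0-fold higher in Col-0 replicate 3 than the geometric mean of replicates 1 and 2, a log2 distance of 4.81. This distance was at or above that of 99.9% of all tested probe sets. With the dim replicates 1 and 2 raised to the 40th percentile of their arrays, the ratio was 17.5-fold. Col-0 replicate 3 also stood 8.05-fold above the vtc1-1 geometric mean and 5.63-fold above that of vtc2-1. In the same array the leaf genes RCA and PRK had their lowest signals, 5751 and 2624, while the root hair expansin EXPA7 had its highest, 56.9. The other root gene, PYK10, had 3001 there, within its range over the 9 arrays and 1.18-fold above the geometric mean of Col-0 replicates 1 and 2. Over all tested probe sets Col-0 replicate 3 was the lowest array at 15.3% and the highest at 11.0%. The distance of RCA from the other wild-type arrays was at or above that of 68.3% of tested probe sets. Those of PRK and EXPA7 were each at or above that of 75.1%. The part of tissue make-up in the result was not tested. Fewer cells of a type and less RNA per cell cannot be told apart in such samples.

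With all arrays AT4G16260 differed from Col-0 by 0.20 ± 0.97 in vtc1-1 (SE; limma adjusted p = 0.998) and by 0.71 ± 0.97 in vtc2-1 (limma adjusted p = 0.910). The intervals are wide, reaching at 95% confidence from -1.91 to 2.30 for vtc1-1 and from -1.39 to 2.81 for vtc2-1, so that they include several-fold differences either way. The arithmetic means were 65.5 ± 17.8 in vtc1-1 and 97.0 ± 43.1 in vtc2-1, against 184 ± 285 in Col-0 (SD, n = 3 arrays each), so that without logarithms the wild type was the higher. The sign was not stable to single wild-type arrays. Without Col-0 replicate 1 the values were -0.90 in vtc1-1 and -0.38 in vtc2-1, and without Col-0 replicate 2 they were -0.31 in vtc1-1 and 0.20 in vtc2-1.

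Without Col-0 replicate 3 the same gene was higher by 2.31 ± 0.40 in vtc2-1 (limma adjusted p = 0.0266), a 4.97-fold change with an interval of 2.74 to 9.04. The gene was highest in that array, so leaving it out could only raise the differences from Col-0. The p-values of this fit are not free of that choice. In vtc1-1 the difference was 1.80 ± 0.40 and missed the threshold (limma adjusted p = 0.0818). All 3 arrays of each mutant lay above both remaining Col-0 arrays, as at 8.68% of all tested probe sets. Those 2 arrays were dim. With them set to the 40th percentile of their arrays, the ratio of geometric means was 3.11-fold in vtc2-1 and 2.18-fold in vtc1-1. The call in vtc2-1 also held with 16 added to every signal (1.62 ± 0.29, limma adjusted p = 0.0282) and after quantile normalization (2.32 ± 0.41, limma adjusted p = 0.0313). It was lost when vtc2-1 replicate 2, the highest mutant array, was left out as well (1.98 ± 0.41, limma adjusted p = 0.0882), or Col-0 replicate 1, the lowest array (1.73 ± 0.44, limma adjusted p = 0.169).

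The arrangement of AT4G16260, with Col-0 replicates 1 and 2 below all 6 mutant arrays and Col-0 replicate 3 above them, was found at 281 of 14603 tested probe sets, 1.92%, and at no other glucanase. The 2 mutants did not differ detectably from each other in this gene. Its log2 difference of vtc2-1 from vtc1-1 was 0.52 ± 0.97 (SE, limma adjusted p = 0.998), with a 95% interval of -1.59 to 2.62. Without Col-0 replicate 3 it was 0.52 ± 0.36 (limma adjusted p = 0.969). All arrays in a fit share 1 estimate of the spread, so this SE also takes in that of Col-0. The log2 SD was 2.84 in Col-0, against 0.41 in vtc1-1 and 0.61 in vtc2-1.

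The probe sets most like AT4G16260 across the 9 arrays were found by the mean absolute difference of log2 signals, each centred on its own mean, among 7896 other tested probe sets that name 1 gene. The nearest was OSM34, an osmotin-like protein of the thaumatin family, at a mean distance of 0.23, where the median over all of them was 1.06. OSM34 had signals of 96.4, 177 and 223 in vtc1-1, 289, 372 and 186 in vtc2-1 and 51.4, 94.7 and 1489 in Col-0 replicates 1, 2 and 3. Next came AT3G19390, a cysteine protease with a granulin domain, at 0.46. It was followed by AT1G26250, a proline-rich extensin-like protein of the cell wall, at 0.48, by AT3G54040 at 0.49 and by AT1G47400, a small peptide of the iron deficiency response, at 0.52. In Col-0 replicate 1 AT3G19390, AT1G26250 and AT1G47400 were dim, at 4.50, 14.2 and 11.4, below the 40th percentile of that array (30.3). AT3G19390 was also below the 40th percentile in vtc1-1 replicate 1 and vtc2-1 replicate 3, at 22.5 and 21.4. So was AT1G47400 in vtc1-1 replicate 1 (26.6), vtc2-1 replicates 1 and 3 (22.7 and 23.7) and Col-0 replicate 2 (21.5). In each of the 5 nearest genes Col-0 replicate 3 had the highest signal and Col-0 replicate 1 the lowest. The 5 were picked for likeness on these same signals, so a shared highest and lowest array follows largely from the choice. This likeness is a description over 9 arrays. AT4G12490, a lipid-transfer type protein that also sets Col-0 replicate 3 apart, was not near by this measure, at rank 7201 with a distance of 1.25. It had signals of 272, 280 and 1573 in vtc2-1 replicates 1, 2 and 3 and 874 to 1160 in vtc1-1, against 62.7, 68.5 and 1495 in Col-0. The other 8 glucanases ranked between 1247 and 7332. Signals were centred but not scaled, so this distance takes in the size of the swings as well as their pattern. A far rank therefore does not show by itself that the pattern differs.

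**Figure D2:**
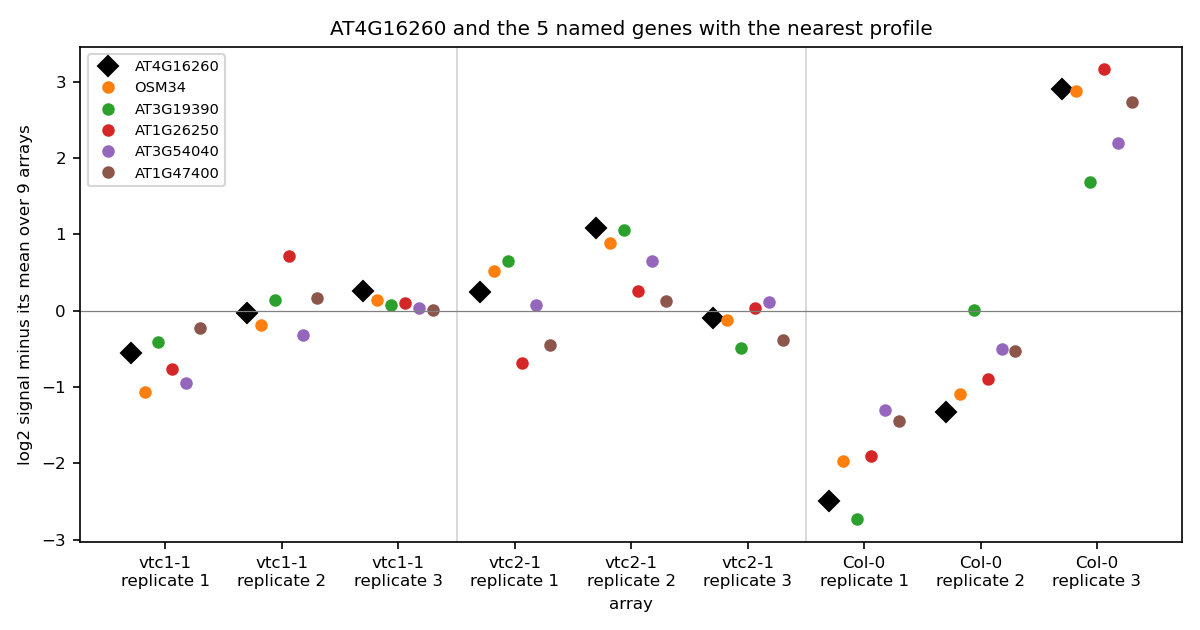
Log2 signal minus the gene's own mean over the 9 arrays (vertical axis), by array (horizontal axis), for AT4G16260 (black diamonds) and the 5 named genes nearest to it (coloured points). All 6 genes are highest in Col-0 replicate 3 and lowest in Col-0 replicate 1, and OSM34 follows AT4G16260 most closely, at a mean distance of 0.23. The 5 were chosen for likeness on these same signals.

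Plasmodesmal glucanases came next. AT2G01630 and AT3G13560 are known in Arabidopsis to act at plasmodesmata, where they limit callose and affect the spacing of lateral roots. AT2G01630 had signals of 48.6, 49.8 and 66.2 in vtc1-1, 47.1, 56.7 and 53.9 in vtc2-1 and 37.3, 41.5 and 38.8 in Col-0. All 6 mutant arrays lay above all 3 wild-type arrays, including Col-0 replicate 3, an arrangement shared by 1.50% of the tested probe sets. The means were 54.9 ± 9.83 in vtc1-1 and 52.6 ± 4.97 in vtc2-1, against 39.2 ± 2.12 in Col-0 (SD, n = 3 arrays each).

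The log2 difference of AT2G01630 was 0.47 ± 0.23 in vtc1-1 (SE; limma unadjusted p = 0.0570, adjusted p = 0.998) and 0.42 ± 0.23 in vtc2-1 (limma unadjusted p = 0.0852, adjusted p = 0.805). Neither passed the threshold. These values barely moved without Col-0 replicate 3, at 0.47 ± 0.26 and 0.41 ± 0.26 in the same order, since that array was only 0.02 log2 units from the other wild-type arrays. Leaving out any 1 array gave 0.33 to 0.55 for vtc1-1 and 0.36 to 0.50 for vtc2-1. The 95% intervals with all arrays allow up to a 1.95-fold higher level in vtc1-1 and up to 1.88-fold in vtc2-1.

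AT3G13560, the other plasmodesmal enzyme, had overlapping groups. Its signals were 112, 87.3 and 108 in vtc1-1, 89.7, 90.6 and 85.1 in vtc2-1 and 112, 80.2 and 94.2 in Col-0. The log2 differences were 0.11 ± 0.18 in vtc1-1 and -0.10 ± 0.18 in vtc2-1 (SE; limma adjusted p = 0.998 and 0.937), with 95% intervals of -0.29 to 0.50 and -0.50 to 0.30. They were 0.10 ± 0.21 in vtc1-1 and -0.10 ± 0.21 in vtc2-1 without Col-0 replicate 3. The vtc2-1 arrays were closest together, with a log2 SD of 0.05 against 0.24 in Col-0. AT1G66250, a related plasmodesmal enzyme outside the 10 loci and named after its values were seen, differed by -0.14 ± 0.27 in vtc1-1 and 0.24 ± 0.27 in vtc2-1, and by -0.045 ± 0.31 and 0.34 ± 0.31 without Col-0 replicate 3. None of these values passed.

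The remaining 6 genes encode family 17 proteins for which no more specific role is given here. AT2G27500 was on the low side in both mutants. Its signals were 119, 97.5 and 105 in vtc1-1, 86.0, 87.8 and 114 in vtc2-1 and 129, 142 and 188 in Col-0. All 6 mutant arrays lay below all 3 wild-type arrays, as at 0.952% of the tested probe sets.

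AT2G27500 averaged 107 ± 11.1 in vtc1-1 and 96.0 ± 15.8 in vtc2-1, against 153 ± 31.3 in Col-0 (SD, n = 3 arrays each). Its log2 difference was -0.50 ± 0.20 in vtc1-1 (SE; limma unadjusted p = 0.0250, adjusted p = 0.998). In vtc2-1 it was -0.67 ± 0.20 (limma unadjusted p = 0.00484, adjusted p = 0.685), the smallest p of the glucanases with all arrays. Without Col-0 replicate 3, where the gene had its highest signal, the values were -0.34 ± 0.20 and -0.51 ± 0.20 in the same order (limma adjusted p = 0.529 and 0.237). The direction was the same whichever array was left out, with -0.61 to -0.34 for vtc1-1 and -0.80 to -0.51 for vtc2-1, and the threshold was not passed in any of these fits.

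AT3G55430 had signals of 193, 211 and 194 in vtc1-1, 236, 195 and 128 in vtc2-1 and 238, 216 and 314 in Col-0. The vtc1-1 arrays lay below all wild-type arrays, while the vtc2-1 arrays overlapped them and were the more scattered, with a log2 SD of 0.45 against 0.07 in vtc1-1. The log2 difference was -0.34 ± 0.22 in vtc1-1 and -0.49 ± 0.22 in vtc2-1 (SE; limma adjusted p = 0.998 and 0.783), and -0.18 ± 0.22 and -0.33 ± 0.22 without Col-0 replicate 3.

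AT5G58090 had signals of 79.9, 82.6 and 94.3 in vtc1-1, 83.2, 65.8 and 63.9 in vtc2-1 and 79.3, 96.8 and 110 in Col-0, so that its groups overlapped. Its log2 difference was -0.15 ± 0.19 in vtc1-1 and -0.43 ± 0.19 in vtc2-1 (SE; limma adjusted p = 0.998 and 0.783). Leaving out Col-0 replicate 3 gave -0.037 ± 0.21 in vtc1-1 and -0.31 ± 0.21 in vtc2-1, where the unadjusted limma p was 0.161, against 0.0466 with all arrays. Like AT4G16260, AT2G27500 and AT3G55430, it had its highest signal in Col-0 replicate 3. That array was the highest of the 9 at 4 of 9 glucanases, where it was so at 11.0% of all tested probe sets, and it was the lowest at 0 of 9, where it was so at 15.3%. These positions were counted after the values were seen.

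AT4G31140 showed the opposite position. Its signals were 50.5, 43.1 and 33.9 in vtc1-1, 51.3, 36.6 and 33.1 in vtc2-1 and 67.7, 67.4 and 34.7 in Col-0. Col-0 replicate 3 lay among the mutant arrays, 0.96 log2 units below the average of Col-0 replicates 1 and 2, and all 6 mutant arrays were below those. Such a position below Col-0 replicates 1 and 2 was held by 2 of 9 glucanases (8.87% of all), AT4G31140 and AT2G27500, and one above them by another 2 (8.68%), AT4G16260 and AT2G01630. With all arrays the log2 difference was -0.37 ± 0.32 in vtc1-1 and -0.45 ± 0.32 in vtc2-1 (SE; limma adjusted p = 0.998 and 0.820). Without Col-0 replicate 3 it was -0.69 ± 0.30 and -0.77 ± 0.30, and neither passed (limma adjusted p = 0.355 and 0.229).

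AT3G07320 had signals of 121, 86.4 and 129 in vtc1-1, 91.9, 89.1 and 118 in vtc2-1 and 61.7, 106 and 110 in Col-0. Its log2 difference was 0.30 ± 0.25 in vtc1-1 and 0.14 ± 0.25 in vtc2-1 (SE; limma adjusted p = 0.998 and 0.933), and the low Col-0 replicate 1 carried much of it, with values of 0.03 and -0.13 without that array. Leaving out Col-0 replicate 3 gave 0.45 ± 0.26 in vtc1-1 and 0.29 ± 0.26 in vtc2-1. AT5G55180 had the steadiest wild-type level, with signals of 168, 165 and 178 in Col-0, a log2 SD of 0.05. Its signals were 194, 161 and 214 in vtc1-1 and 170, 211 and 152 in vtc2-1. Both mutants surrounded the wild type, and the log2 differences of 0.15 ± 0.17 and 0.05 ± 0.17 had 95% intervals that in vtc1-1 ran from -0.23 to 0.52 and in vtc2-1 from -0.33 to 0.42. These differences were 0.18 ± 0.19 in vtc1-1 and 0.077 ± 0.19 in vtc2-1 without Col-0 replicate 3.

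**Figure D3:**
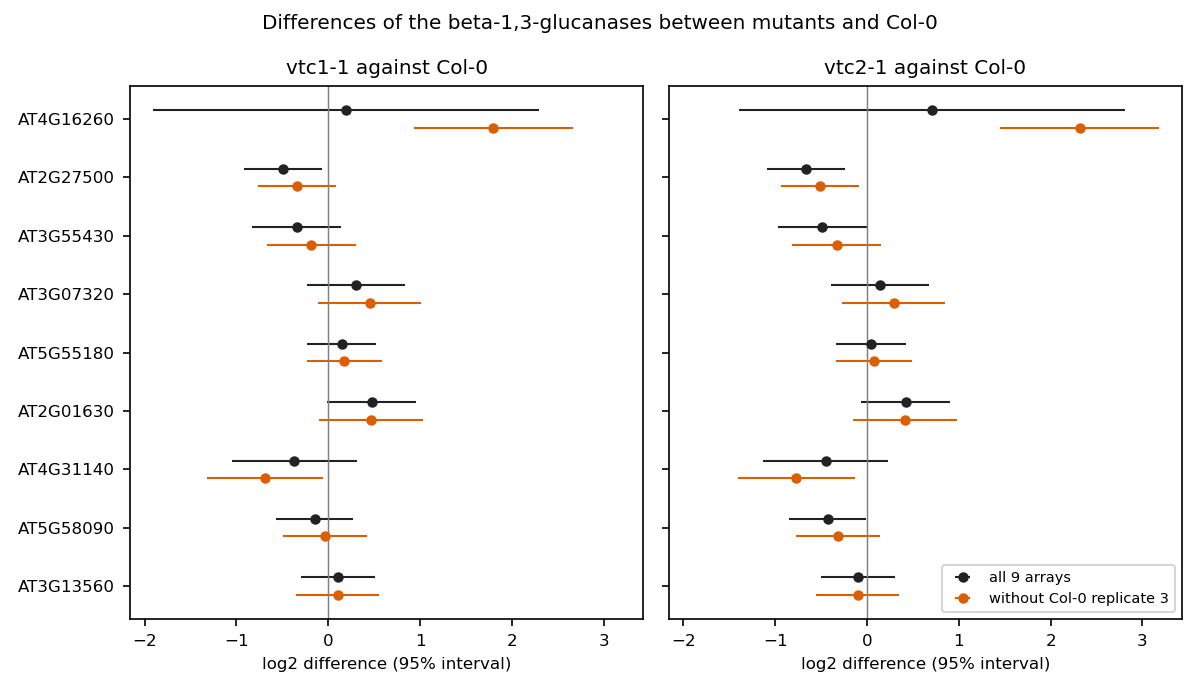
Log2 differences from Col-0 (horizontal axis) of the 9 glucanases (rows) in vtc1-1 (left) and vtc2-1 (right), with 95% intervals, using all 9 arrays (black) or leaving out Col-0 replicate 3 (orange). Only AT4G16260 moves by over 1 log2 unit between the fits, to 1.80 in vtc1-1 and 2.31 in vtc2-1.

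Counted together, 0 of 9 glucanases were called by limma in vtc1-1 with all arrays, where 0% of the tested probe sets were called. At an unadjusted p under 0.05, 1 of 9 was lower (1.87% of all were) and 0 of 9 higher (2.26%). In vtc2-1 limma called 0 of 9, where 0.00685% of all were called, and at an unadjusted p under 0.05 it gave 3 of 9 as lower (2.62% of all), AT2G27500, AT3G55430 and AT5G58090, and 0 of 9 as higher (3.66%). These 3 genes are all among the 4 with their highest signal in Col-0 replicate 3. Without that array AT2G27500 and AT4G31140 were the 2 glucanases lower in vtc2-1 at an unadjusted p under 0.05, where 6.61% of all were.

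The median log2 difference of the 9 genes was 0.11 in vtc1-1, with 5 of them above 0, and -0.10 in vtc2-1, with 4 above 0. Over all tested probe sets these medians were 0.0074 and 0.013, with 51.2% and 51.9% above 0. Groups did not overlap at 1 glucanase on the higher side in vtc1-1 (4.36% of all) and at 2 on the lower side (3.58%), and in vtc2-1 at 1 on the higher (6.27%) and 1 on the lower side (4.52%). The comparisons of both mutants used the same wild-type arrays. Without Col-0 replicate 3, 0 of 9 glucanases were called by limma in vtc1-1 (0.322% of all; 2 of 9 at an unadjusted p under 0.05, against 12.6%) and 1 of 9 was called in vtc2-1, AT4G16260, on the higher side (0.835% of all, 0.548% on the higher side; 3 of 9 at an unadjusted p under 0.05, against 15.4%).

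**Figure D4:**
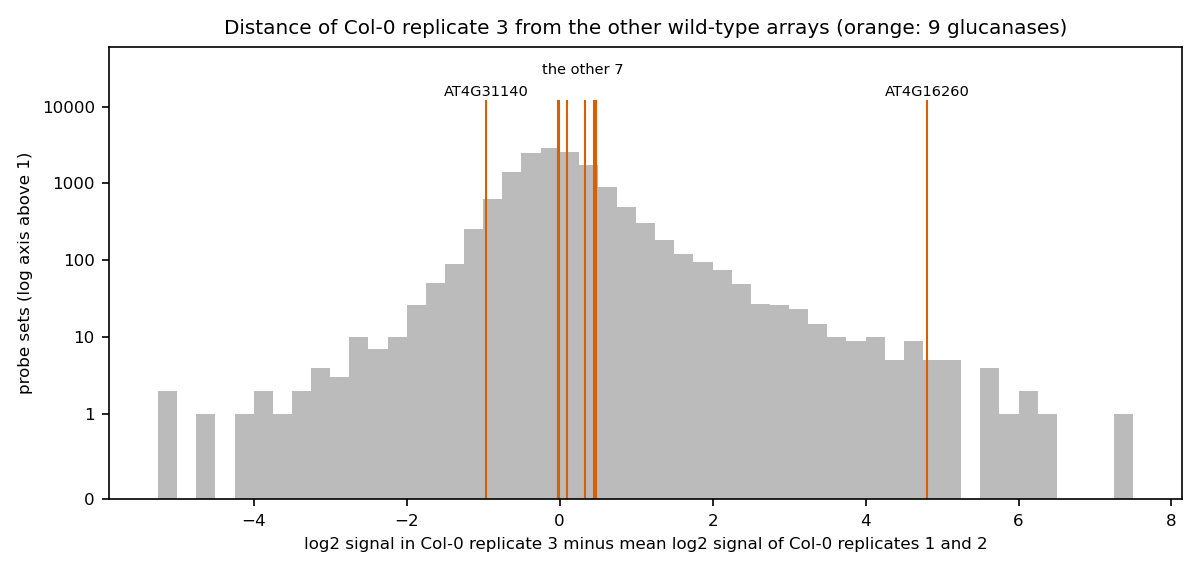
Number of the 14603 tested probe sets (vertical axis, logarithmic above 1) by the log2 signal of Col-0 replicate 3 minus the mean of Col-0 replicates 1 and 2 (horizontal axis), with orange lines for the 9 glucanases. AT4G16260 stands at 4.81 and AT4G31140 at -0.96, while the other 7 lie between -0.02 and 0.48; over all probe sets the 5th and 95th percentiles are -0.87 and 1.18.

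The mutants were also compared with each other, a contrast that uses no wild-type mean. Its SE and p-values do take in the wild-type spread, since all 9 arrays share 1 estimate of it. None of the 9 glucanases was called by limma, where 0.00685% of all were, and 0 of 9 had an unadjusted p under 0.05, against 3.61% of all. In 8 of 9 the log2 difference of vtc2-1 from vtc1-1 was below 0 (49.1% of all), at -0.28 to -0.05, and AT4G16260 was above 0. The lowest was AT5G58090 at -0.28 ± 0.19 (SE; limma unadjusted p = 0.175), with a 95% interval of -0.70 to 0.14. The median was -0.15, against 0.0049 over all tested probe sets. Among 14 other tested family 17 genes, described below, 7 were below 0 in this comparison, with a median of 0.019. The 2 mutants' arrays overlapped in all 9 glucanases, where they did not at 5.69% of all on the higher and 4.56% on the lower side.

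By genotype mean of log2 signals, vtc2-1 was lowest, vtc1-1 in the middle and Col-0 highest in 4 genes, AT2G27500, AT3G55430, AT5G58090 and AT4G31140. In AT3G07320, AT5G55180 and AT2G01630 Col-0 was lowest, vtc2-1 in the middle and vtc1-1 highest. AT3G13560 ran from vtc2-1 through Col-0 to vtc1-1, and AT4G16260 from Col-0 through vtc1-1 to vtc2-1, an order that also held without Col-0 replicate 3 but not without Col-0 replicate 1 or without Col-0 replicate 2. None of these neighbours differed past the threshold with all arrays. Leaving out 1 array could also change the order in AT3G55430, AT4G31140, AT3G07320, AT5G55180, AT2G01630 and AT3G13560. AT2G27500 and AT5G58090 kept theirs whichever array was left out.

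Further genes of callose metabolism and defence were taken from lists of loci. Of 40 other family 17 loci, 31 had a probe set of their own and 14 were tested. The 17 that were not tested exceeded the 40th percentile on at most 2 of 9 arrays. PR2, BG3 and BG1 were among the family 17 loci without a paired probe set, so the counts below do not cover them. The lists of callose synthases, of callose-binding and other plasmodesmal proteins and of salicylate defence genes, with 12, 11 and 10 loci, had 0 loci paired with a probe set in the annotation and were not analysed here.

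Among the 14 tested family 17 genes limma called 0 in either mutant. At an unadjusted p under 0.05 there was 1 in vtc1-1 (4.13% of all) and 0 in vtc2-1 (6.28%). Without Col-0 replicate 3 limma again called 0 of 14, and at an unadjusted p under 0.05 there were 2 in vtc1-1 (12.6% of all), AT5G42720 and AT1G11820, and 3 in vtc2-1 (15.4%), AT1G11820, AT5G58480 and AT4G18340, the last named after its values were seen. AT5G42720, the one gene of the fit with all arrays, had signals of 90.2, 122 and 125 in vtc1-1 and 113, 72.2 and 98.0 in vtc2-1, against 85.0, 67.4 and 66.9 in Col-0. All vtc1-1 arrays lay above all Col-0 arrays, while those of vtc2-1 overlapped them. Its log2 difference was 0.61 ± 0.22 in vtc1-1 and 0.36 ± 0.22 in vtc2-1 (SE; limma adjusted p = 0.998 and 0.805), and 0.55 ± 0.24 and 0.30 ± 0.24 without Col-0 replicate 3.

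Among these 14 genes AT1G11820 had the next smallest p in vtc1-1 and AT5G58480 the smallest in vtc2-1. AT1G11820 differed by -0.26 ± 0.18 in vtc1-1 and AT5G58480 by -0.37 ± 0.21 in vtc2-1 (SE; limma adjusted p = 0.998 and 0.805). With Col-0 replicate 3 left out, AT1G11820 was at -0.42 ± 0.18 in vtc1-1 and -0.45 ± 0.18 in vtc2-1 (limma unadjusted p = 0.0321 and 0.0236), and AT5G58480 in vtc2-1 at -0.55 ± 0.22 (limma unadjusted p = 0.0279). None of these passed after adjustment, the lowest adjusted p being 0.240. The median log2 difference of the 14 genes was 0.04 in vtc1-1 and 0.10 in vtc2-1, with 8 and 9 of them above 0, and -0.020 and 0.074 without Col-0 replicate 3, with 7 above 0 in each. Col-0 replicate 3 was the highest array at 1 of these 14 genes, AT4G18340, and the lowest at 2. AT4G18340 had signals of 32.2, 41.4 and 109 in Col-0. The last was 2.97-fold above the geometric mean of the others, a distance at or above that of 96.2% of all tested probe sets. It differed by 0.11 ± 0.43 in vtc1-1 and 0.28 ± 0.43 in vtc2-1, and by 0.63 ± 0.35 and 0.81 ± 0.35 without that array. None of the 14 was over 8 times higher in Col-0 replicate 3 than in the other wild-type arrays, as AT4G16260 and 0.685% of all tested probe sets were.

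**Figure D5:**
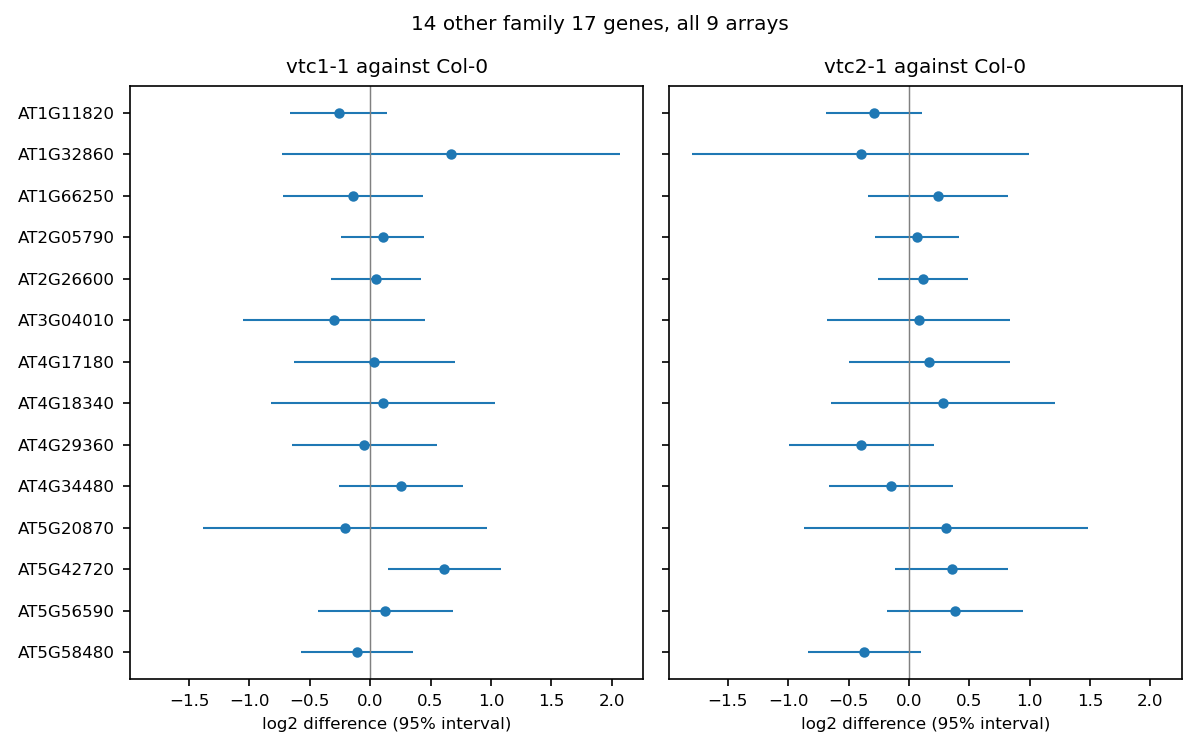
Log2 differences from Col-0 (horizontal axis) with 95% intervals for the 14 other tested family 17 genes (rows) in vtc1-1 (left) and vtc2-1 (right), using all 9 arrays. AT5G42720 in vtc1-1, at 0.61, is the only value whose interval leaves out 0, and it did not pass the threshold after adjustment.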

How the data were processed

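Total RNA of whole seedlings was hybridised to 1-colour arrays, 1 per sample, per the labels' protocols. The authors deposited linear signal intensities per probe set, which GCOS and MAS5 produced, per the submitters' processing notes; versions are not given in the sources used here. With 2% trimmed from both ends, all arrays had the same mean of 100.0, so these scaled intensity values were used as deposited. Scaling hides changes in total RNA per seedling, and dim MAS5 signals scatter widely on a log scale.

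Signals were log2 transformed without a pseudocount. Testing required a signal above the 40th percentile of the array on at least 3 of 9 arrays and left out controls (14603 of 22810). One model of group means over all arrays was fitted with limma 3.58.1 in R 4.3.3 (eBayes, trend on intensity). Adjusted p-values are those of Benjamini and Hochberg over all tested probe sets. The procedure was tested on simulated data, with the same spread for all arrays at each probe set and no outlying array. Such data do not show how the fits behave with an array like Col-0 replicate 3. Gene names come from the platform annotation through the TAIR10.1 gene table: 13513 name 1 gene, 503 several, and 8794 stay unnamed. Coordinates and sequences are not shown. Members and lists were chosen with earlier results of these data known. Named genes were all members, the 2 members of each further list with the smallest p in each comparison with Col-0, the 5 probe sets nearest to AT4G16260, and AT4G12490 and OSM34; AT1G66250 and the tissue markers were added. Alternatives were quantile normalization, median centring, no filter, a pseudocount of 16, no trend, only the 2 groups compared, a replicate block, array weights, and leaving out each array; combinations without Col-0 replicate 3 were added after seeing the data. Figures were drawn with matplotlib 3.10.9.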

Additional observations from a re-analysis of the deposited data

How the results depend on the processing

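The count of called glucanases stayed at 0 in all 3 comparisons under quantile normalization, median centring, no filter on dim probe sets, a pseudocount of 16, no intensity trend, only the 2 groups compared, array weights and a replicate block, and leaving out 1 array gave 0 to 1 in vtc2-1 against Col-0. It was also 1 there without Col-0 replicate 3 together with a pseudocount of 16 or quantile normalization. The count over the other 14 family 17 genes was 0 in every fit. Over all tested probe sets, vtc1-1 against Col-0 gave 0 to 47 calls when 1 array was left out, and without Col-0 replicate 3 it gave 48 with a pseudocount of 16, 48 with quantile normalization, 34 without vtc2-1 replicate 2 and 7 without Col-0 replicate 1. For vtc2-1 against Col-0 the range was 0 to 122, with 0 calls without an intensity trend and 0 with only the 2 groups compared, and without Col-0 replicate 3 it was 136, 116, 13 and 29 in the same order. Between the mutants 2 were called without an intensity trend and 1 when any 1 array was left out. The cause was not tested.

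Of 567 values of single glucanases under 21 alternatives, 547 kept their direction and side of the threshold, 3 passed it newly (AT4G16260 in vtc2-1) and 17 changed sign, none of them past the threshold. AT4G16260 in vtc1-1 was -0.11 with a pseudocount of 16 and -0.90 to 1.80 when 1 array was left out, and in vtc2-1 it was -0.38 to 2.31. With array weights it was 0.93 in vtc1-1 and 1.64 in vtc2-1. Other ranges that crossed 0 were AT3G13560 (-0.013 to 0.23 in vtc1-1, -0.22 to 0.03 in vtc2-1), AT3G07320 (-0.13 to 0.29 in vtc2-1) and AT5G55180 (-0.083 to 0.15 in vtc2-1). Without Col-0 replicate 3, AT3G07320 in vtc2-1 was -0.10 and AT3G13560 0.14 in vtc2-1 and 0.34 in vtc1-1 without Col-0 replicate 1 as well, and AT5G55180 in vtc2-1 was -0.052 and AT3G07320 0.37 without vtc2-1 replicate 2 as well. Between the mutants these ranges were -0.34 to 0.10 for AT3G55430, -0.23 to 0.0046 for AT5G55180, -0.13 to 0.092 for AT2G01630 and -0.27 to 0.052 for AT4G31140.

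The labels give all genotypes replicate numbers 1 to 3. They do not say that a number marks a shared sowing or day, so the numbers were not taken to pair the arrays. Deviations of same-numbered arrays correlated at -0.07 to 0.20, over 0.1 in 2 of 9 pairs, and 6 of 9 arrays correlated best with their own number. These values do not settle whether the numbers pair the arrays. With a replicate block the count of called glucanases was 0 in every comparison, and AT2G27500 in vtc2-1 had a limma adjusted p of 0.492. Signals below the 40th percentile limit the size of the AT4G16260 differences.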
